A study of Mus musculus with 8 samples.

Results

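The genes examined were those of the amino acid transporter families Slc1, Slc6, Slc7, Slc36 and Slc38, taken as every protein-coding GENCODE gene on mouse chromosomes 1 to 19 (build GRCm38, mm10) whose symbol carried the name of one of these families. The rule found 55 of 20720 protein-coding genes, of which 7 were in Slc1, 19 in Slc6, 15 in Slc7, 4 in Slc36 and 10 in Slc38. One of them, Slc7a6os, is the antisense neighbour of Slc7a6 and encodes no transporter, and it was kept because the name rule takes it. Livers came from male C57BL/6 mice whose Jmjd3 alleles were floxed in both groups. The mice received AAV-TBG-Cre, in which the TBG promoter limits Cre to hepatocytes, or AAV-GFP as the control virus at 8 weeks of age, and were fasted for 16 h after a further 12 weeks. H3K27-me3 ChIP-seq gave 2 libraries per virus, each group with 2 input libraries. The authors made 1 list of enriched regions from both replicates of each group, so that every count below compares 1 AAV-Cre list with 1 AAV-GFP list, the lists give no value per mouse, and no test of a difference between the groups was made. A region is a stretch in which the authors' peak caller found the mark enriched over input, and a gene is called marked when a region lies within the stated distance of a start site of its basic protein-coding transcripts.

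H3K27-me3, trimethylation of lysine 27 on histone H3, is laid down by Polycomb repressive complex 2 and marks genes held silent, whereas JMJD3 is a demethylase that removes it. Amino acid transporters of the solute carrier families differ in their driving ions and substrates, and most tissues use only some of them. Slc1 holds the glutamate transporters of brain and sensory tissue and the neutral exchangers. Slc6 holds the sodium- and chloride-dependent carriers of neurotransmitters, osmolytes and neutral amino acids. Slc7 holds cationic amino acid transporters and the light chains that pair with a heavy chain of family Slc3, Slc36 holds proton-coupled carriers of small neutral amino acids, and Slc38 holds sodium-coupled carriers of glutamine and other neutral amino acids. Hepatocytes take up much of the amino acid load reaching the liver, and in fasting they use these carbon skeletons for glucose.

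The AAV-Cre list held 59267 regions of at least 300 bp and the AAV-GFP list 34586 regions of at least 120 bp. The q-value was 0.05 or lower for 88.6% of the former and 46.8% of the latter. A region present in only 1 list is therefore a difference between calls, and depth per library was unknown, so a call missing from the AAV-GFP list cannot be told apart from a weaker one. Of 6 hepatocyte marker genes, none had a region within 1 kb of a start site in either list, and only Cyp2e1 had any within 15 kb. Of 6 developmental regulators, fixed as a check of the mark, 5 were marked within 1 kb in both lists, and regions covered a median of 79.5% (AAV-Cre) and 48.1% (AAV-GFP) of their surroundings. Of 12 markers of stellate, endothelial, Kupffer and biliary cells, 8 were marked within 1 kb in each list. Of all protein-coding genes, 24.6% (AAV-Cre) and 17.1% (AAV-GFP) were marked within 1 kb, and 43.1% and 29.0% within 15 kb. The 6 hepatocyte markers are too few to be set apart from these shares. The libraries were made from whole liver, in which fewer cells carrying the mark and less mark per cell cannot be told apart.

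Amino acid transporter genes were marked more often than protein-coding genes at large in both lists, and every difference in presence ran toward AAV-Cre. Within 1 kb of a start site, 34 of 55 genes (61.8%, Wilson 95% interval 48.6 to 73.5) had an AAV-Cre region, against 24.6% of all protein-coding genes. The AAV-GFP list had a region at 23 of 55 (41.8%, 29.7 to 55.0), against 17.1% of all genes. All 23 were also marked in AAV-Cre, so that 23 genes were marked in both lists, 11 (20.0%, 11.6 to 32.4) only in AAV-Cre and 0 (0%, 0 to 6.53) only in AAV-GFP. Of all protein-coding genes, 7.81% were marked by the AAV-Cre list alone and 0.294% by the AAV-GFP list alone. Among the 32 transporter genes without an AAV-GFP region in that window, 11 (34.4%, 20.4 to 51.7) had one in AAV-Cre, against 9.43% of all genes without one. The intervals cover counting error over genes only and say nothing of the spread between mice.

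With the window widened to 15 kb the surplus over all genes was smaller. An AAV-Cre region lay there at 39 genes (70.9%, 57.9 to 81.2; all genes 43.1%) and an AAV-GFP region at 26 (47.3%, 34.7 to 60.2; all genes 29.0%). The 13 genes marked only in AAV-Cre were 23.6% of the families (14.4 to 36.3), an interval that holds the 15.3% of all genes. None was marked only in AAV-GFP, against 1.25% of all genes. Of the 29 transporter genes without an AAV-GFP region within 15 kb, 13 (44.8%, 28.4 to 62.5) had an AAV-Cre region, against 21.6% of all such genes. Over the gene body from first to last annotated base, 34 genes (61.8%) had an AAV-Cre region and 26 (47.3%) an AAV-GFP region, against 29.8% and 21.4% of all genes. The 8 genes with a body region only in AAV-Cre made up 14.5% (7.56 to 26.2) beside 9.10% of all genes, none had one only in AAV-GFP beside 0.748%, and 8 of the 29 without an AAV-GFP body region (27.6%) had one in AAV-Cre beside 11.6%. The transporter genes are longer than most, with a median length of 37.5 kb against 17.6 kb over all genes, which gives a region more room to overlap the body; the part of length in these shares was not tested.

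**Figure D1:**
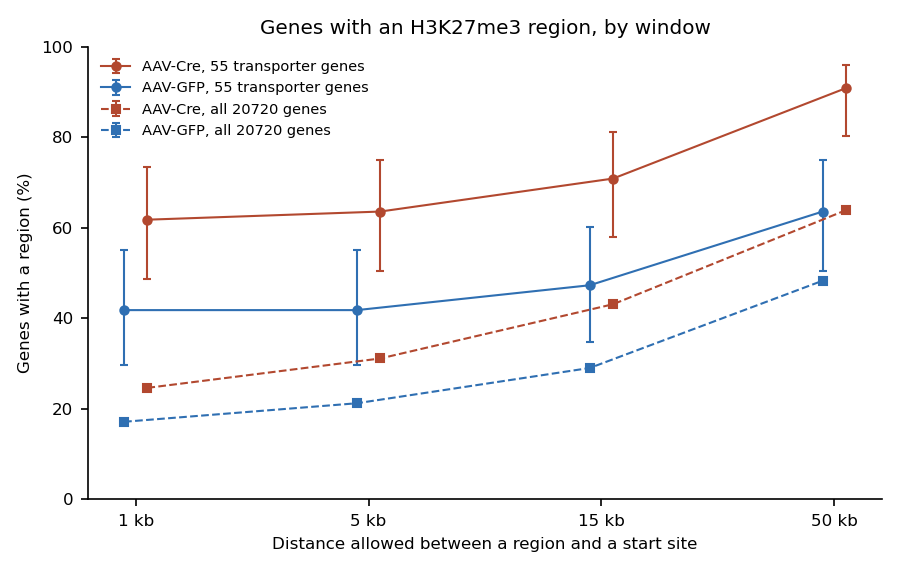
Percent of genes with an H3K27-me3 region (vertical axis) within 1, 5, 15 or 50 kb of a start site (horizontal axis, categories) in the AAV-Cre list (red) and the AAV-GFP list (blue), for the 55 transporter genes (circles, solid lines) and all 20720 protein-coding genes (squares, dashed lines). Bars are Wilson 95% intervals over genes; the transporter genes lie above all genes in both lists at each window, with 61.8% against 24.6% for AAV-Cre at 1 kb and 90.9% against 63.9% at 50 kb.

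The regions themselves differed in number and width between the lists. The smallest region of the whole list was 300 bp in AAV-Cre and 120 bp in AAV-GFP. Widths and covered bases are thus on unlike scales, and whether the mark itself was broader was not tested. At the 55 genes, within 15 kb of a start site or over the body, the AAV-Cre list had 208 regions with a median width of 832 bp (303 to 16855 bp) and the AAV-GFP list 114 with a median width of 261 bp (120 to 2500 bp). Their summed length was 289 kb in AAV-Cre and 48.6 kb in AAV-GFP, beside 73734 kb and 14948 kb for the whole lists. Of the AAV-GFP regions, 104 (91.2%, 84.6 to 95.2) overlapped an AAV-Cre region by at least 1 bp, beside 86.4% of the whole AAV-GFP list, and 10 did not. Of the AAV-Cre regions, 55 (26.4%, 20.9 to 32.8) overlapped an AAV-GFP region, close to the 24.2% of the whole AAV-Cre list. The overlapping AAV-Cre regions were wider, with a median of 1939 bp against 684 bp for the rest, as they were in the whole AAV-Cre list (1877 against 638 bp). Median widths over the whole lists were 753 bp in AAV-Cre and 231 bp in AAV-GFP, so that the regions at the transporter genes had much the same widths and overlaps as regions at large.

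All 39 genes with any region had more bases covered in AAV-Cre than in AAV-GFP. So did most genes at large with unequal coverage (of 20720 genes, 9259 had more in AAV-Cre and 295 more in AAV-GFP). The unlike minimum widths of the lists apply to these lengths too. The surroundings of a gene were taken as its body plus 15 kb on either side of each start site. By this measure 27 of the 55 genes were covered in both lists. Their ratio of covered bases of AAV-Cre to AAV-GFP lay between 2.12 (Slc6a15) and 254 (Slc36a2), with a median of 4.56. Of all 20720 genes, 6075 were covered in both lists. Their median ratio was 4.23, with quartiles of 2.61 and 7.93, close to the median of the transporter genes. More than 10% of the surroundings was covered at 18 transporter genes in AAV-Cre (32.7%; all genes 18.7%) and at 0 in AAV-GFP (all genes 4.72%). The number of regions did not always rise with the covered length. In AAV-GFP there were more regions than in AAV-Cre at Slc6a15, Slc6a3, Slc6a4, Slc6a5 and Slc7a8, where several short AAV-GFP regions lay inside fewer, wider AAV-Cre ones.

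**Figure D2:**
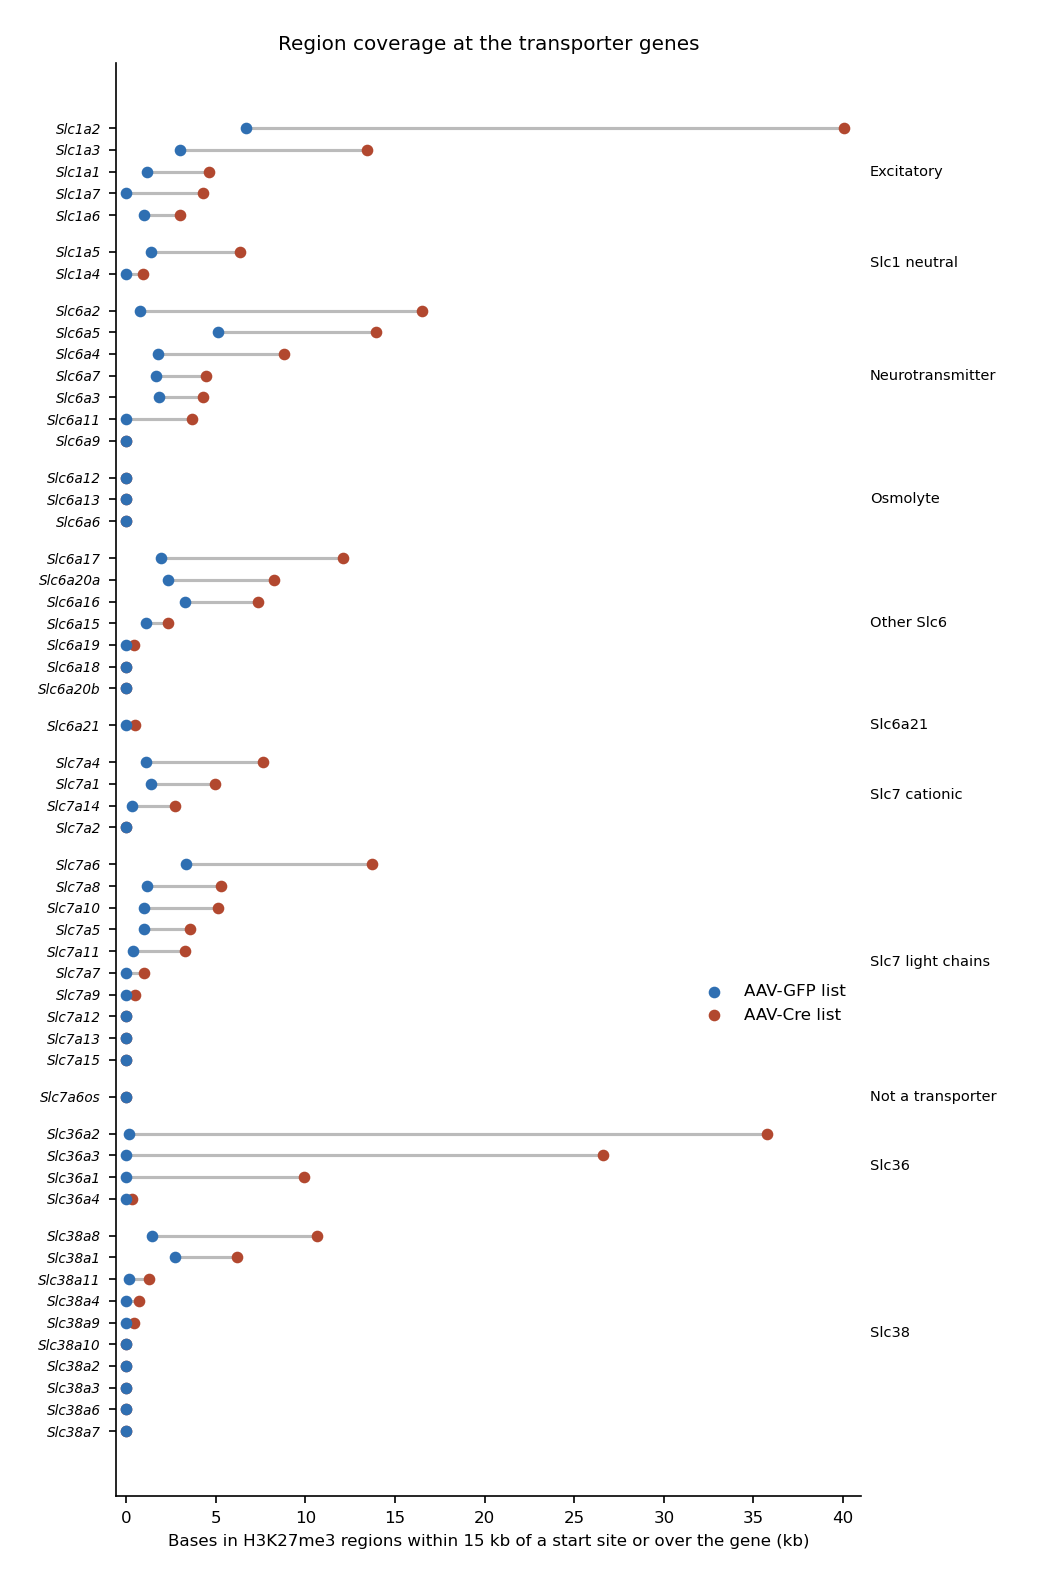
Bases in H3K27-me3 regions within 15 kb of a start site or over the gene (kb, horizontal axis) for the transporter genes (vertical axis, grouped by role; 1 gene is not shown), in the AAV-GFP list (blue) and the AAV-Cre list (red); a grey line joins the lists, and a lone point at 0 stands for both. Slc1a2 reached 40.0 kb in AAV-Cre and 6.70 kb in AAV-GFP and Slc36a2 35.8 kb and 0.141 kb, while 16 genes were at 0 in both.

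Sequences under the summit of the strongest AAV-Cre region are given for 4 genes to show how different the marked DNA was. They were read from the + strand of GRCm38, 200 bases each, with CpG dinucleotides in capitals. The Slc36a2 window (chr11:55163821-55164020) lay in an intron inside a region absent from AAV-GFP and held 2 CpGs at 51.5% GC. The Slc1a2 window (chr2:102710027-102710226), also intronic but inside a region overlapping AAV-GFP regions, held 3 CpGs at 53.0% GC. The Slc38a4 window (chr15:97054587-97054786) lay in an intron near the start site inside an AAV-Cre region without counterpart and held 16 CpGs at 70.0% GC, and it is a run of near-repeated units. The Slc6a5 window (chr7:49908067-49908266) lay upstream of the gene inside a region shared by both lists and held 12 CpGs at 60.5% GC.
Slc36a2: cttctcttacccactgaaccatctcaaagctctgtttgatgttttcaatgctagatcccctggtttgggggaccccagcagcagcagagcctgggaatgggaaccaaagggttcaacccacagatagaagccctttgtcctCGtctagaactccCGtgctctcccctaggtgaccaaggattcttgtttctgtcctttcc
Slc1a2: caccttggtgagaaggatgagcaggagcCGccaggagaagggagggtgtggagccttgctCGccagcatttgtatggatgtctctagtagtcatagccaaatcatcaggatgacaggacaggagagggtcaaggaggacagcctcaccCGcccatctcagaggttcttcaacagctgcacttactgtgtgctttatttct
Slc38a4: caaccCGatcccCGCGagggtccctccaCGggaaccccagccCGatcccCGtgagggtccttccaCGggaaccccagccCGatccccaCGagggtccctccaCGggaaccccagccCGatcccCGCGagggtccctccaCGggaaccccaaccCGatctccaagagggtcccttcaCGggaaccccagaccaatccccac
Slc6a5: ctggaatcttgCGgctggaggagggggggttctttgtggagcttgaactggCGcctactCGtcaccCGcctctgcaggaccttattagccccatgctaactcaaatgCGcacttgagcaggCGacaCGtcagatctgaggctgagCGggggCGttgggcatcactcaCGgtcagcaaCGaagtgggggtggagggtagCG

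Of the 55 genes, Slc36a2 and Slc36a3 differed most between the lists in the share of their surroundings covered. Slc36a2 and Slc36a3, proton-coupled transporters of glycine, proline and related amino acids that are best known from kidney and testis, lie next to each other on the minus strand of chromosome 11 (chr11:55158470-55185077 and chr11:55124815-55151708), and Slc36a1, which carries amino acids out of lysosomes and across the gut wall, starts on the plus strand beside them at position 55204350. From 15 kb before Slc36a3 to 15 kb past Slc36a2, a window of 90.3 kb (chr11:55109815-55200077), the AAV-Cre list had 26 regions that covered 56.0 kb, or 62.0% of the bases. The AAV-GFP list had 1 region of 141 bp in the same window, or 0.156% of the bases. That AAV-GFP region (chr11:55172893-55173033, q = 0.012) lay in an intron of Slc36a2, 12044 bp from its start site, and fell inside an AAV-Cre region. The other 25 AAV-Cre regions overlapped nothing in AAV-GFP.

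The AAV-Cre regions ran over both genes and their start sites. The widest (chr11:55173864-55190718, 16855 bp) spanned the Slc36a2 start site and part of its coding exons, with a fold enrichment over input of 7.83 at its summit and q = 1.6e-26. It ranked 65 of 59267 in the AAV-Cre list by width. A second region of 7426 bp (chr11:55160532-55167957) reached the same fold and q, and a neighbouring one of 4207 bp (chr11:55169452-55173658), which held the AAV-GFP region, had a fold of 6.38 and q = 1.6e-20. In all, 88.2% of the Slc36a2 body was covered in AAV-Cre and 0.530% in AAV-GFP. Slc36a3 was covered over 54.5% of its body in AAV-Cre by shorter regions, 18 within its surroundings with a median width of 976 bp, and over 0% in AAV-GFP. Its start site lay in a 1539-bp AAV-Cre region with a fold of 3.29 and q = 1.5e-06.

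The stretch ended short of Slc36a1. Its last AAV-Cre region (chr11:55201522-55202852, fold 4.69, q = 1.4e-10) stopped 1498 bp before the first Slc36a1 start site, none lay over the 32.0-kb body of Slc36a1, and the next one began 16940 bp past the end of the gene. Slc36a1 therefore counted as marked within 15 kb only through 8 regions on its upstream side, of which 5 had Slc36a1 and 3 had Slc36a2 as the gene with the closest start site. In AAV-GFP the closest call was 31317 bp from a start site. On the other side, Gm2a, which encodes a lysosomal lipid-binding protein, had 0% of its body covered in either list. Its surroundings were covered over 5.01% in AAV-Cre and 0% in AAV-GFP. Beyond Slc36a1, the body of Fat2 was covered over 4.06% in AAV-Cre and 0% in AAV-GFP. Slc36a4, the remaining member of the family, lies on chromosome 9 and had a lone AAV-Cre region of 314 bp at 13494 bp from a start site (fold 2.43, q = 0.023).

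Coverage as high as at Slc36a2 in AAV-Cre usually came with coverage in AAV-GFP. Among 13444 protein-coding genes of at least 10 kb, 330 had at least 50% of the body covered in AAV-Cre, and the median AAV-GFP coverage of these 330 was 20.2% (quartiles 12.0 and 33.3). Of the 330, 8 had under 1% covered in AAV-GFP, and Slc36a2 and Slc36a3 were 2 of them. At 80% or more in AAV-Cre there were 88 genes with a median AAV-GFP coverage of 42.2%, and Slc36a2 was the 1 with under 1%. By the difference in covered share of the surroundings, Slc36a2 (86.0% in AAV-Cre, 0.339% in AAV-GFP) ranked 1 and Slc36a3 (63.5% and 0%) ranked 5 of 20720. These limits were set with the values of the locus known and are a description. How far single mice carried this stretch was not tested.

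**Figure D3:**
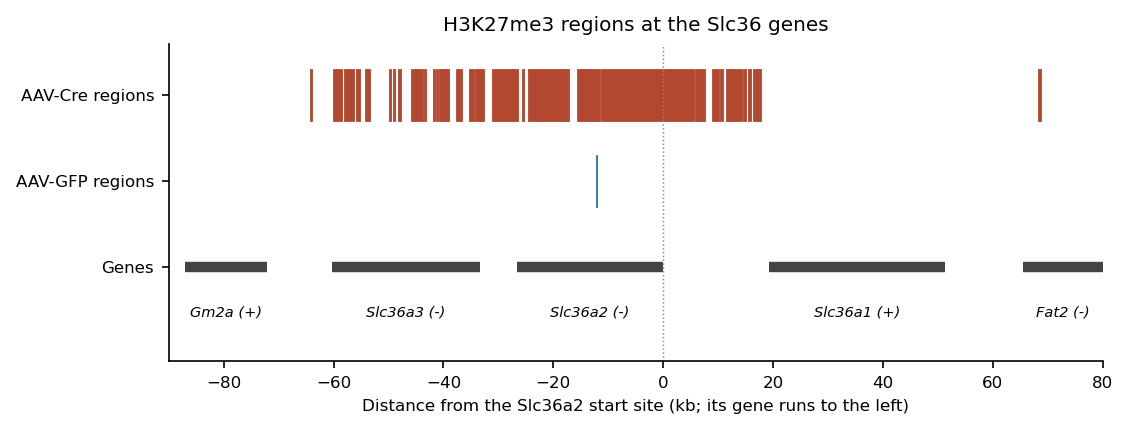
Map of the Slc36 genes of chromosome 11, with H3K27-me3 regions of the AAV-Cre list (red, top) and of the AAV-GFP list (blue, middle) and genes with their strand (grey, bottom), against the distance from the Slc36a2 start site in kb (dotted line at 0). AAV-Cre regions run from Slc36a3 across Slc36a2 and stop 1498 bp before Slc36a1, and the 1 AAV-GFP region is 141 bp wide (drawn no thinner than a line).

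The excitatory amino acid transporters, which clear glutamate, were all marked in AAV-Cre within 1 kb (5 of 5), and 4 of 5 in AAV-GFP. The shares of all genes were 24.6% and 17.1%. Slc1a2, the main glutamate transporter of astrocytes, which hepatocytes around the central vein also use, had the most covered bases of the 55 genes in AAV-Cre. These AAV-Cre bases were 27.2% of its surroundings, a lower share than at Slc36a2 (86.0%), Slc36a3 (63.5%), Slc7a6 (30.5%), Slc6a2 (29.1%) and Slc38a8 (28.7%). Slc1a2 held 35 AAV-Cre regions that summed to 40.0 kb and 24 AAV-GFP regions that summed to 6.70 kb. Both sets started upstream of the first start site. Of these, 10 AAV-Cre and 20 AAV-GFP regions overlapped the other list. The strongest AAV-Cre region (chr2:102709244-102711296, 2053 bp, fold 7.22, q = 7.5e-23) was intronic and 50.5% of it was overlapped by AAV-GFP regions. The widest (chr2:102712004-102721674, 9671 bp) had a lower fold of 3.16 and 23.0% overlapped. Unlike Slc36a2, Slc1a2 thus had many AAV-GFP regions, most of which overlapped AAV-Cre regions. The reverse did not hold, since 25 of the 35 AAV-Cre regions overlapped nothing in AAV-GFP. No AAV-GFP region lay between chr2:102664517 and chr2:102682090, a stretch that held several AAV-Cre regions. The AAV-GFP calls ranged from a strongest one with q = 1.8e-07 to weak ones with q-values such as 0.18 and 0.98.

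**Figure D4:**
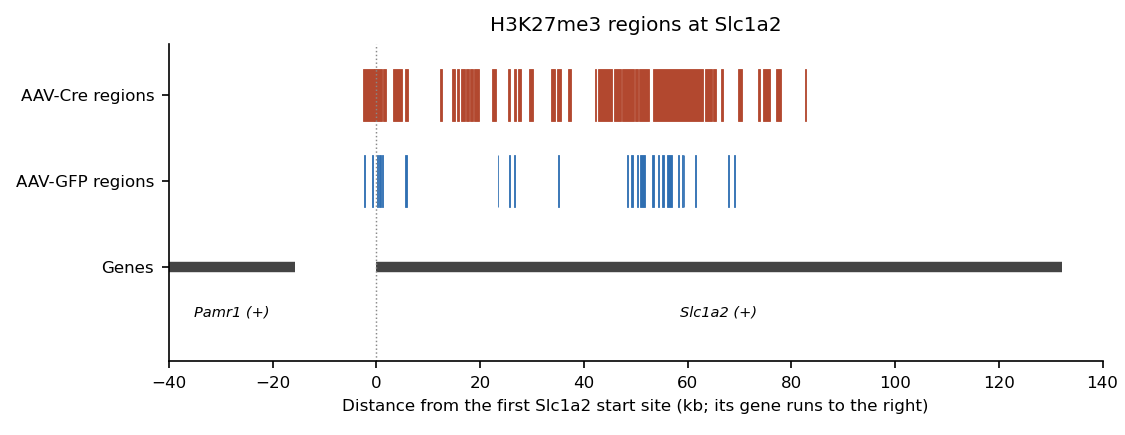
Map of Slc1a2 drawn as for the Slc36 genes, against the distance from its first start site in kb. The 35 AAV-Cre regions (red) reach 82.9 kb into the 132-kb gene and the 24 AAV-GFP regions (blue) 69.1 kb.

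The other excitatory transporters had fewer regions and less covered length. Slc1a3, the glial transporter, had 12 regions in each list, which covered 13.4 kb in AAV-Cre and 2.97 kb in AAV-GFP, and its strongest AAV-Cre region lay over the start site (3129 bp, fold 5.49, q = 2.2e-14). Slc1a1, expressed in neurons and kidney, and Slc1a6, of cerebellar Purkinje cells, had 4592 and 2995 bp covered in AAV-Cre and 1155 and 1010 bp in AAV-GFP. Slc1a7, a transporter of the retina, was marked only in AAV-Cre, by 5 regions of 363 to 1640 bp. The one over its start site was weak (904 bp, fold 2.65, q = 0.0047), and the closest one of the AAV-GFP list was 62342 bp off. Of the neutral exchangers, Slc1a5, which exchanges glutamine, was marked in both lists with a strong AAV-Cre region over its start site (2979 bp, fold 10.7, q = 1.2e-44). Slc1a4, which exchanges serine and alanine, had 1 AAV-Cre region (chr11:20331502-20332433, 932 bp, fold 4.08, q = 7.9e-08) at 251 bp from a start site, and its closest AAV-GFP region was 1299298 bp off.

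The neurotransmitter transporters of Slc6 were marked at 7 of 8 genes in AAV-Cre and 6 of 8 in AAV-GFP within 1 kb. Within 15 kb the counts were the same. The shares of all genes were 24.6% and 17.1% within 1 kb, and 43.1% and 29.0% within 15 kb. Slc6a2, which takes up noradrenaline, had 14 AAV-Cre regions covering 16.5 kb against 3 AAV-GFP regions covering 0.763 kb. A 4683-bp AAV-Cre region lay over its start site (fold 5.60, q = 2.3e-14), while the AAV-GFP region there was 401 bp wide with q = 0.63. Slc6a5, the glycine transporter of inhibitory neurons, was the reverse in number, with 6 AAV-Cre regions covering 13.9 kb and 12 AAV-GFP regions covering 5.10 kb, each of which overlapped an AAV-Cre region. Slc6a4, the serotonin transporter, had its strongest AAV-Cre region over the start site (5594 bp, fold 9.57, q = 2.4e-37) and 4 AAV-GFP regions overlapping AAV-Cre calls. Slc6a3 and Slc6a7, carriers of dopamine and proline, were marked in both lists, and their covered lengths were 4.26 and 4.43 kb in AAV-Cre and 1.81 and 1.65 kb in AAV-GFP. Slc6a11, a GABA transporter of astrocytes, was marked only in AAV-Cre, by 5 regions of which 1 lay over the start site (chr6:114130710-114132694, 1985 bp, fold 4.47, q = 3.6e-09). Slc6a9, the other glycine transporter, was the 1 gene of the group without a region in either list.

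Within the rest of Slc6 the osmolyte carriers stood at 0. Slc6a6 (taurine), Slc6a12 (betaine) and Slc6a13 (GABA and taurine, in hepatocytes) had no region within 15 kb or over the body in either list. The nearest AAV-Cre regions were 35480, 27688 and 74880 bp away. Of all genes, 55.7% likewise had no region within 15 kb in either list. Of the 7 other Slc6 genes, 4 were marked in both lists within 1 kb, beside 16.8% of all genes. Slc6a17, a vesicular carrier of neurons, had 11 AAV-Cre regions covering 12.1 kb and 3 AAV-GFP regions covering 1.91 kb. Slc6a20a, a proline carrier, shared its start-site region with Ccr9, a chemokine receptor gene whose start site lies under the same calls (AAV-Cre 3735 bp, q = 6.7e-29; AAV-GFP 878 bp, q = 1.3e-06). The neighbouring copy Slc6a20b had none. Slc6a19, the main neutral amino acid carrier of gut and kidney brush border, had 1 AAV-Cre region of 439 bp at 12525 bp from a start site and Slc6a18, its kidney relative, had none. Slc6a21 had 1 AAV-Cre region of 481 bp at 5565 bp.

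In Slc7, 7 of 10 light chains were marked in AAV-Cre and 4 in AAV-GFP within 1 kb, and 3 of 4 genes of the cationic branch in AAV-Cre and 2 in AAV-GFP. Slc7a6, which exchanges arginine and glutamine, had 13 AAV-Cre regions covering 13.7 kb and 6 AAV-GFP regions covering 3.31 kb. Its start-site region was 3029 bp wide in AAV-Cre (q = 3.6e-22) and 2274 bp wide in AAV-GFP (q = 5.2e-11). Slc7a5, Slc7a8 and Slc7a10, carriers of large and small neutral amino acids, were also marked in both lists, with 3565, 5290 and 5143 bp covered by AAV-Cre regions and 1004, 1131 and 985 bp by AAV-GFP regions.

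The light chains marked only in AAV-Cre within 1 kb were Slc7a7, Slc7a9 and Slc7a11, a class that held 7.81% of all genes. Slc7a11, the cystine-glutamate exchanger that supplies cysteine for glutathione, had a 961-bp AAV-Cre region over its start site (chr3:50442826-50443786, fold 3.69, q = 5.9e-06). A second, 1432-bp AAV-Cre region lay 60402 bp inside the gene and overlapped the only AAV-GFP region there (352 bp, q = 0.50). Slc7a7, which exports arginine and lysine, had a 523-bp region over a start site (q = 3.2e-04), and Slc7a9, the cystine carrier of kidney, a 476-bp region at 225 bp (q = 0.0086). The last was among the weaker calls of the list, at rank 62.0% by p-value. Slc7a12, Slc7a13 and Slc7a15 had no region in either list.

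Among the cationic branch, Slc7a1, the widely used arginine carrier, was marked in both lists with a 3125-bp AAV-Cre region over its start site (fold 8.78, q = 2.6e-32). Slc7a14, a lysosomal member, was marked in both by shorter calls. Slc7a4 was marked only in AAV-Cre within 1 kb, by a region of 3222 bp over the start site (chr16:17573983-17577204, fold 4.78, q = 1.4e-10). Its 4 AAV-GFP regions within 15 kb lay at or inside the neighbouring genes Lrrc74b and P2rx6, whose start sites were closer. Slc7a2, which carries arginine into hepatocytes, had no region in either list, and its nearest AAV-Cre region was 64869 bp from a start site.

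The sodium-coupled Slc38 genes were the least marked of the larger groups, with 4 of 10 marked within 1 kb in AAV-Cre and 2 of 10 in AAV-GFP. Of all genes, 24.6% and 17.1% were, and 10 genes are too few to set these counts apart from those shares. Slc38a1, a glutamine carrier of neurons and other tissues, carried the strongest call of the family in both lists over its start site (AAV-Cre 4437 bp, fold 10.4, q = 7.1e-49; AAV-GFP 2500 bp, fold 5.28, q = 1e-16). Slc38a11 was marked in both by a region of 1243 bp in AAV-Cre and a weak one of 143 bp in AAV-GFP (q = 0.17). Slc38a8, a glutamine carrier of eye and brain, had 7 AAV-Cre regions covering 10.6 kb and 3 AAV-GFP regions covering 1.44 kb, all 3 of the latter inside a 5626-bp AAV-Cre region that lay 7057 bp from the start site. Within 1 kb of its start site it was marked only in AAV-Cre (652 bp at 310 bp, fold 3.08, q = 2.9e-04). Slc38a4, a liver carrier of small neutral and cationic amino acids, had 1 AAV-Cre region (chr15:97054408-97055101, 694 bp, fold 3.78, q = 1.5e-06) in an intron 855 bp from a start site, and its closest AAV-GFP region was 84286 bp off. Slc38a9, an arginine sensor of the lysosome, had 1 AAV-Cre region of 428 bp at 8349 bp, over the start site of its neighbour Ddx4.

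Of 7 genes that hepatocytes use for amino acid uptake, 2 were marked within 1 kb in AAV-Cre and 1 in AAV-GFP, counts near the shares of all genes (24.6% and 17.1%). Slc1a2 was marked in both lists and Slc38a4 only in AAV-Cre, while Slc7a2, Slc38a2, Slc38a3, Slc6a12 and Slc6a13 had no region within 15 kb or over the body. Slc38a2, which is induced when amino acids are scarce, and Slc38a3, which exchanges glutamine across the hepatocyte membrane, had their nearest AAV-Cre regions at 37019 and 15140 bp, the latter just outside the window. In all, 16 of the 55 genes (29.1%) had no region within 15 kb in either list, beside 55.7% of all protein-coding genes. None of the 16 had a region over the body either. Besides those 5 hepatocyte genes, the 16 were Slc38a6, Slc38a7, Slc38a10, Slc6a6, Slc6a9, Slc6a18, Slc6a20b, Slc7a6os, Slc7a12, Slc7a13 and Slc7a15. The closest AAV-Cre call lay between 15140 and 958717 bp from their start sites. A gene without a region may still carry the mark below the caller's threshold.

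Other genes of amino acid handling were counted in the same way, beside 24.6% (AAV-Cre) and 17.1% (AAV-GFP) of all genes. Of 20 transporters of other families and mitochondrial carriers, 6 had an AAV-Cre region within 1 kb and 4 an AAV-GFP region. The vesicular carriers Slc17a6, Slc17a7 and Slc32a1 of glutamatergic and inhibitory neurons and the peptide carrier Slc15a1 were marked in both lists, and Slc43a1 and Slc15a3 only in AAV-Cre. Slc3a1 and Slc3a2, the heavy chains that pair with the Slc7 light chains, had no region in either list. Of 21 enzymes of liver amino acid catabolism and the urea cycle, 2 were marked within 1 kb, both only in AAV-Cre. These were Oat, ornithine aminotransferase, with regions over 53.8% of its surroundings in AAV-Cre and 3.73% in AAV-GFP, and Sds, serine dehydratase, with 33.7% and 0%. A further 16 of the 21 enzymes, Cps1, Ass1 and Arg1 among them, had no region within 15 kb in either list, beside 55.7% of all genes.

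CpG content at the start site differed between genes marked in both lists and genes marked only in AAV-Cre. Over 500 bp on each side of the first start site, the observed number of CpGs was divided by the number expected from the C and G content. The median ratio was 0.630 for the 23 transporter genes marked in both lists within 1 kb, 0.354 for the 11 marked only in AAV-Cre and 0.451 for the 21 marked in neither. Over all protein-coding genes in the same classes the medians were 0.635, 0.364 and 0.595, so the first 2 classes had nearly the same medians as all genes of their class. A ratio of 0.60 or more was found at 13 of 23 genes marked in both (56.5%), at 2 of 11 marked only in AAV-Cre (18.2%; Slc1a4 at 0.717 and Slc6a11 at 0.759) and at 8 of 21 in neither class (38.1%). Slc36a3 (0.144), Slc36a2 (0.226) and Slc38a8 (0.119) were among the poorest in CpG. The ranges overlapped, since Slc38a11 was marked in both lists at 0.364 and Slc38a2 in neither at 1.02, and no test was made.

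**Figure D5:**
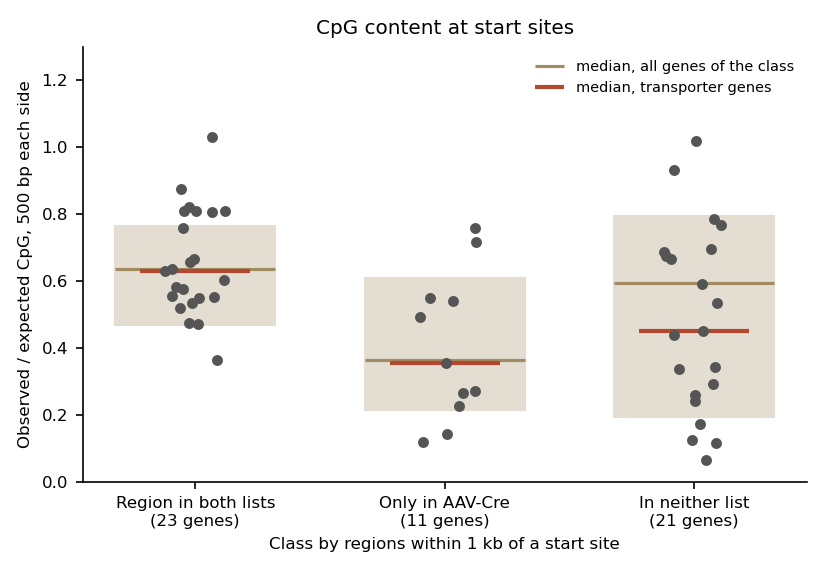
Observed over expected CpG in the 500 bp on each side of the first start site (vertical axis, no unit) for the 55 transporter genes (points, spread sideways at random), by whether regions lay within 1 kb of a start site in both lists, only in AAV-Cre or in neither. Red lines are medians of the transporter genes (0.630, 0.354 and 0.451), and boxes and brown lines are quartiles and medians of all genes of the class (0.635, 0.364 and 0.595).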

How the data were processed

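The authors mapped reads to mm10 with bwa 0.7.13, filtered them with Samtools 1.2 and Picard 1.126 in the AQUAS histone ChIP-seq pipeline with pooled input as the control, called peaks with MACS, and kept peaks that overlapped across replicates. The deposited lists give for each region the fold enrichment over input (a ratio), the −log10 p-value and the −log10 q-value. Each list pools both replicates of its group, so that no value per library, replicate error or depth was analysed here.

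Start sites were taken from basic protein-coding transcripts of GENCODE M21 (GRCm38), regions were overlapped with them by at least 1 bp in Python 3.11.15 with pandas 2.3.3, and sequence was read with pysam 0.24.0 from the RefSeq copy of GRCm38. Shares have Wilson 95% intervals, and the code was tested on simulated data. Each list has its own scale and number of regions, so a fold or q-value places a region within its own list and is no measure of a difference between lists. The genes, lists of roles and named genes were chosen with earlier results of these data known. Named were the Slc36 family, genes marked only in 1 list within 1 kb, the 8 genes marked in both with the most AAV-Cre bases, the 8 marked only in AAV-Cre within 15 kb with the strongest regions, and 7 genes used by hepatocytes; a few others were named after their values were seen. Alternatives were stricter q-values and p-values, equal numbers of top regions, a width minimum, other windows and all transcripts. Further ones were leaving out Slc7a6os and assignment to the closest start site. Values of a few single genes are not reported here.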

Additional observations from a re-analysis of the deposited data

How the results depend on the processing

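Of 74 values recomputed under other settings, 69 stayed in place and 5 moved. A count of genes was held to 1.5 times the reported one and a percentage to its counting interval. All 5 were percentages. The limit for counts was wide, so a count in place may still have changed by several genes. Some of the 69 came from leaving out Slc7a6os, which had no region in either list, so those could not change. For the Slc36a2 and Slc36a3 window, 61.6% against 62.0% already counted as moved, so there the label alone marks no sizeable change. Requiring at least 0.5 of an AAV-Cre region to be covered by AAV-GFP regions lowered the overlapping share from 26.4% to 4.81%, since the AAV-Cre regions are wider. The AAV-Cre coverage of the Slc36a2 and Slc36a3 window was 61.6% under a q-value limit of 0.05, 58.7% under a limit of 0.01 and 56.8% with equal numbers of top regions, and the AAV-GFP coverage was 0% under the limit of 0.01. Of the 11 genes marked only in AAV-Cre within 1 kb, 9 kept that class in every such setting, while Slc1a7 and Slc7a9 lost their region at a −log10 p of at least 5 and with equal numbers of top regions. Of the 13 within 15 kb, 10 kept it; Slc36a4 lost its region under the q-value limit of 0.01, and Slc36a4, Slc6a21 and Slc7a9 under the other 2. Genes marked in both lists within 1 kb also lost their AAV-GFP region, namely Slc38a11, Slc6a2 and Slc7a14 at a q-value limit of 0.05, with Slc7a10 besides at 0.01 and at a −log10 p of at least 5, and Slc38a11 and Slc7a14 with a minimum width of 300 bp. The AAV-GFP count within 1 kb ran from 19 to 24 and the count marked only in AAV-Cre within 15 kb from 10 to 17. No setting gave a gene marked only in AAV-GFP within 15 kb. Assignment to the closest start site, chosen after seeing the data, left 38 genes marked in AAV-Cre and 13 only there within 15 kb.

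No paired analysis was possible because each deposited list pools both replicates of its group, which also kept any replicate from being left out. The lists hold presence of a call and not a level, so a region in 1 list does not show that the mark was absent from the other. Depth of the libraries was unknown.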

Other observations

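The same name rule applied to the X chromosome gave 4 further genes, which were left out of all counts above. Slc38a5, a glutamine carrier, was marked in both lists within 1 kb, with 26.4% of its body covered in AAV-Cre and 2.22% in AAV-GFP. Slc6a8, the creatine transporter, was marked only in AAV-Cre within 1 kb (1 region over a start site), and in AAV-GFP its nearest region was 12660 bp away. Slc6a14 and Slc7a3, carriers of neutral and cationic amino acids, had no region within 15 kb or over the body in either list.

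Besides Slc36a2 and Slc36a3, genes of at least 10 kb with at least 50% of the body covered in AAV-Cre and under 1% in AAV-GFP included Krt79, Map3k6, Sdsl and Tent5c. Sdsl is the serine dehydratase-like gene, and its relative Sds, an enzyme of serine breakdown, had 33.7% of its surroundings covered in AAV-Cre and 0% in AAV-GFP. These genes were chosen after their values were seen. Of the 12 markers of other liver cells, Dcn was the 1 with more coverage in AAV-GFP and the other 11 had more in AAV-Cre. Dcn had 1 AAV-GFP region of 129 bp at 2 bp from a start site, and its closest AAV-Cre region was 210474 bp off.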
